A study of Rattus norvegicus with 8 samples.

Results

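Kallikreins are secreted serine proteases that loosen the bonds between cells in stratified epithelia and process hormones and growth factors in glands. Their activity is held in check by Kazal-type inhibitors of the Spink family, while clade B serpins (Serpinb genes) act mostly inside cells on serine or cysteine proteases, and stefins and cystatins block cysteine cathepsins. These families were described in the thyroarytenoid (TA) muscle, the muscle of the vocal fold, of male Long Evans rats. RNA of 8 rats at 8 months of age was sequenced. There were 4 Pink1-/- rats, which lack the mitochondrial kinase that is also lost in an inherited form of Parkinson's disease, and 4 WT rats.

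The members were chosen by gene symbol, and the rule found 31 of 14016 entries in the authors' table. These were 10 kallikreins, 2 Spink inhibitors, 11 clade B serpins and 5 stefins and cystatins, which makes 28 proteases and inhibitors. The other 3 entries, Cstf1, Cstf2 and Cstf3, share only the first letters of the cystatin symbols. They encode subunits of cleavage stimulation factor, which acts in the 3′ end formation of mRNA, so the symbol rule went beyond the families and these genes were counted with neither proteases nor inhibitors. No member stood on more than 1 entry.

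The level of a gene is its average log2 CPM (read counts scaled to the size of the library) over all rats, a single value that the authors computed. It carries no error: with 0 columns for single rats in the table, neither sequencing depth nor the variation among animals can be known. It joins both genotypes and gives no direction between them: the only genotype values in the table are those of the authors' own comparison, which were not used. The averages do not take transcript length into account, so they measure reads and not transcripts, and an order between genes reflects length as well as abundance. In whole muscle, fewer cells of a type and less RNA per cell cannot be told apart.

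The table held genes of the labelled tissue. Of 9 skeletal muscle markers, 6 had an entry, at average log2 CPM values of 10.20 to 14.75. Myh2, Myh1 and Ttn had none, so a gene without an entry here was not shown to be unexpressed. Markers of other cells were present too. Squamous epithelium, the tissue in which kallikreins and Spink5 are best known, had entries for 10 of 12 markers at 3.64 to 8.18, with the keratins Krt4 at 8.18, Krt15 at 8.14 and Krt13 at 8.01 the highest. All 5 airway gland markers had an entry, at 2.88 to 11.74, while the ciliated cell marker Foxj1 had none here, and macrophage markers had 5 of 5 entries at 2.43 to 5.49. None of 6 neutrophil markers had an entry. The part of these cell types in the levels below was not tested. Pink1 itself averaged 7.49, a mean over rats with and without the gene that cannot check the labels.

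Kallikreins were low as a family. Their median average log2 CPM was 0.77 beside 3.14 over all 14016 entries, and 0 of the 10 lay above that overall median. Klk14, a trypsin-like kallikrein that activates other kallikreins in human skin, had the highest average log2 CPM at 2.26 (ENSRNOG00000033706), a level above that of 33.5% of entries. Klk13 followed at 2.12 and Klk10 at 1.96. The values of these first genes lay close together, with 0.14 between Klk14 and Klk13, and without values per rat no order among them can be tested.

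The other kallikreins lay lower. Klk6, a kallikrein best known from the central nervous system, averaged 1.24, and Klk8, or neuropsin, known from brain and skin, averaged 0.80. Klk9 was at 0.63, Klk11 at 0.37 and Klk12 at 0.15 on the same log2 scale. With Klk1b3, 5 of the 10 kallikreins had averages between 0 and 1. The remaining pair belongs to the tissue kallikreins of glands, a rat gene family with many near-identical copies. Klk1b3 averaged 0.74 and Klk1c8 averaged -0.21, the lowest kallikrein. Reads of such copies can be divided among them in the counting, so both values are uncertain.

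Of the Kazal inhibitors, Spink5 stood well above Spink7. Spink5, which encodes the inhibitor LEKTI that blocks epidermal kallikreins and is lost in Netherton syndrome, averaged 3.23 (ENSRNOG00000048953), above 51.5% of entries. Spink7, an inhibitor of the oesophageal lining in humans, averaged -0.07, which is 3.30 lower on the log2 scale. On the linear scale (2 to the power of the average), Spink5 held 90.8% of the summed CPM of the pair.

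Clade B serpins were the family with the most members at middling levels. Their median average log2 CPM was 3.0 over 11 genes, close to the 3.14 of the whole table, and 5 of them lay above that overall median. The highest were Serpinb6a at 4.38 (ENSRNOG00000017962), whose human relative inhibits cathepsin G, Serpinb10 at 4.27, and Serpinb1a at 4.09, which in mouse inhibits neutrophil elastase. Only these 3 serpins averaged above 4. Serpinb2, the plasminogen activator inhibitor type-2 that acts on urokinase, was at 3.20, and Serpinb5, or maspin, an epithelial serpin without inhibitory activity, was at 3.17.

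Below the overall median lay Serpinb8 at 3.0, Serpinb12 at 2.59, whose human form inhibits trypsin, and Serpinb9 at 2.33, an inhibitor of granzyme B. Serpinb3a, related to the human squamous cell carcinoma antigens that inhibit cysteine cathepsins, averaged 1.68, and Serpinb11 averaged 1.45. Serpinb6b, a close copy of the clade B serpin with the highest level, was the lowest of all members at -0.42, which is 4.80 below Serpinb6a. Copies of Serpinb6 and Serpinb9 may share reads, so these values are uncertain.

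Among stefins and cystatins, a single gene carried nearly all reads. Cst3, which encodes cystatin C, the cathepsin inhibitor secreted by most cells, averaged 7.50 (ENSRNOG00000005195) and ranked 280th of 14016 entries. It alone held 93.1% of the summed CPM of its family. Stfa3, a stefin of the cytosol, was next at 3.01, which is 4.49 lower on the log2 scale. Cst6, cystatin E/M, which inhibits legumain and cathepsin L in skin, was at 1.19, and Cst7, cystatin F of immune cells, was at 1.10. Csta, a stefin built into the cornified envelope of the skin, was the lowest at 0.05, which is 2.95 below Stfa3. Stfa3 and Csta lie in a cluster of similar genes, so their split of reads is uncertain.

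The 3 Cstf entries averaged 3.49 for Cstf1, 3.31 for Cstf2 and 2.38 for Cstf3.

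**Figure D1:**
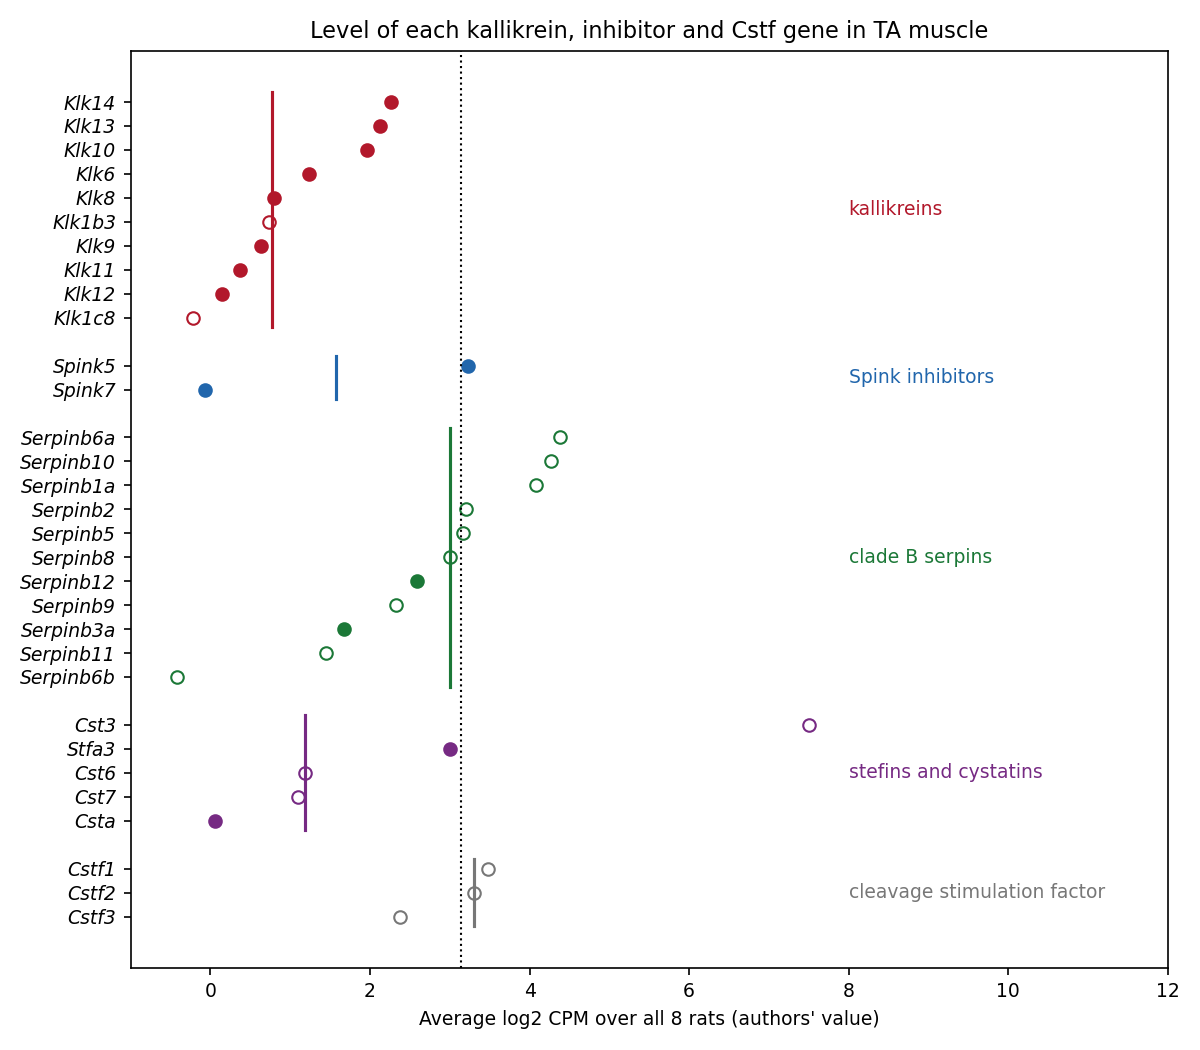
Average log2 CPM over all 8 rats (x axis) for each of the 31 entries, in order of level within each family. Filled points are genes with a designed NanoString target, open points are genes without one, coloured lines are family medians and the dotted line is the median of the whole table at 3.14. All 10 kallikreins sit left of the dotted line, and Cst3 at 7.50 stands alone on the right.

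The order of summed levels of proteases and inhibitors depended on which inhibitors were counted. The order of medians stayed the same, but against Spink inhibitors alone it rested on Spink5. The Spink family holds kallikreins in check, and against it the kallikreins summed to more reads but had the lower median, a difference of -0.81. Both the sum and the median set 10 kallikreins against 2 Spink genes. The Spink median lies midway between Spink5 at 3.23 and Spink7 at -0.07, and Spink7 was below every kallikrein but Klk1c8. Against all 3 inhibitor families the kallikreins were lower by both measures. The median average log2 CPM of the 10 kallikreins was 0.77 and that of all 18 inhibitor family members 2.79, a difference of -2.03, and 0 kallikreins exceeded the inhibitors' median. Above Klk14, the highest kallikrein, lay 11 of the 18 inhibitors: 8 clade B serpins, Spink5, Cst3 and Stfa3. Klk14 was above only 33.5% of all 14016 entries, so most entries of the table lay above it as well. In 138 of the 180 pairs of a kallikrein and an inhibitor, the inhibitor was higher. The same share for all entries was not computed. The inhibitors' median of 2.79 was itself below the 3.14 of the whole table, so these counts show low kallikreins and not high inhibitors. Genes are not replicates, so no test was made on these counts.

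In summed reads the gap to all 3 families was wider and rested in part on 1 gene. The kallikreins together amounted to 23.6 CPM, the Spink inhibitors to 10.3, the clade B serpins to 101 and the stefins and cystatins to 194. The inhibitors thus summed to 12.9 times the kallikreins, a log2 ratio of -3.69 for kallikreins over inhibitors that became -2.40 without Cst3. Stefins and cystatins do not act on kallikreins, and Spink and clade B serpins without them summed to 4.71 times the kallikreins. Most clade B serpins act inside cells, and Serpinb5 among them has no inhibitory activity. The Spink inhibitors alone summed to 0.436 times the kallikreins, which turns the order of the sums round. Spink5, the inhibitor with kallikreins as its known targets, amounted to 9.35 CPM, above the 4.81 CPM of Klk14, the highest single kallikrein. These are reads not scaled by transcript length, so Spink5 was not shown to have more transcripts than Klk14.

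**Figure D2:**
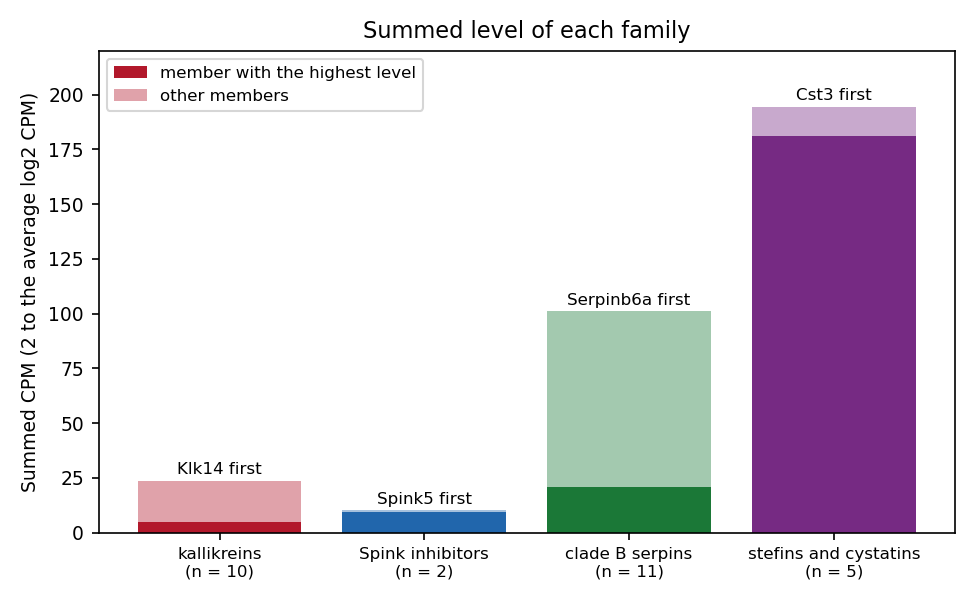
Summed CPM (y axis, 2 to the power of the average log2 CPM, added over members) of the 4 families. The dark part of each bar is the member with the highest level and the pale part the rest. Cst3 fills 93.1% of the tallest bar, while no kallikrein fills more than the 20.3% of Klk14.

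Cysteine proteases had higher levels than the kallikreins. Of 12 cysteine cathepsins, calpains and the related legumain, 11 had an entry, at averages of 2.82 to 7.82 with a median of 5.15. The highest were the lysosomal cathepsins Ctsb at 7.82 and Ctsl at 6.33, the calpain Capn2 at 6.16 and the aminopeptidase cathepsin Ctsh at 5.28. Their summed CPM was 560, which is 2.88 times that of the stefins and cystatins. Calpains are held in check by calpastatin and not by cystatins, and without Capn1 and Capn2 the remaining 9 genes summed to 454 CPM, or 2.33 times.

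Other serine proteases of epithelia were also measured. All 13 membrane-bound or secreted proteases on the list had an entry, with a median average of 1.53 and a range of -0.41 to 3.64. Tmprss11a at 3.64, St14 (matriptase) at 3.60 and Prss8 (prostasin) at 3.10 were above every kallikrein, and Tmprss11g at 2.40 was as well. Together these proteases summed to 2.48 times the CPM of the kallikreins. Another list held desmosomal and other skin protein genes, among them those of kallikrein substrates, and a receptor gene. Dsg3 averaged 4.83, Dsg1 3.38, Dsc1 2.67 and the protease-activated receptor gene F2rl1 2.01, while Cdsn and Flg had no entry here.

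A list of serpins and other inhibitor genes outside the 3 families summed to 0.876 times the CPM of the 18 members. Of 14 listed, 12 had an entry, led by the collagen chaperone Serpinh1 and the C1 inhibitor Serping1, both at 6.23, by Serpinf1 at 5.41 and by the thrombin inhibitor Serpine2 at 4.49. Serpinh1 and Serpinf1 are serpins that do not inhibit proteases, and without them the sum was 150 CPM, or 0.491 times that of the members. The epithelial Kunitz inhibitors Spint2 and Spint1, which act on St14 and Prss8, averaged 4.16 and 3.78, both above Spink5. This pair was singled out after its values were seen.

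Most members lie in clusters of related genes, and only some genes of each cluster had an entry. Gene order was read from RefSeq for the assembly GRCr8, without coordinates because the sources used here do not name the authors' build. Entries were matched to it by symbol. A gene named otherwise by the authors, or whose reads were divided among copies, could therefore appear without an entry. From Klk14 to Klk1b3 there are 25 protein-coding genes, of which 10 had an entry. These were concentrated at one end: 8 of the 10 genes from Klk14 to Klk6 had an entry, but only 2 of the 15 from the next gene, Klk5, to Klk1b3. Klk5 and Klk7, a pair of kallikreins that act in shedding of the skin surface, had no entry here, and neither had Klk1, the tissue kallikrein that releases kinins. Within the first stretch, levels differed between neighbouring groups of genes. Klk14 and Klk13 were at 2.26 and 2.12, the next genes Klk12 and Klk11 at 0.15 and 0.37, and Klk10 again at 1.96.

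The serpins lie in 2 clusters. From Serpinb5 to Serpinb8, 7 of 11 protein-coding genes had an entry, with the lowest levels in the middle, at Serpinb3a (1.68) and Serpinb11 (1.45), and the highest at Serpinb10 (4.27) near one end. In the other cluster, from Serpinb6a to Serpinb1a, the outermost genes were the highest, at 4.38 and 4.09. The genes with entries between them were the quinone reductase gene Nqo2 at 2.64, which is no serpin, Serpinb9 at 2.33 and Serpinb6b at -0.42. In the stefin cluster, the outermost genes Stfa3 and Csta were the only 2 of 10 with an entry. Cst3 was the only 1 of 9 genes with an entry in the stretch of cystatins that it ends.

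**Figure D3:**
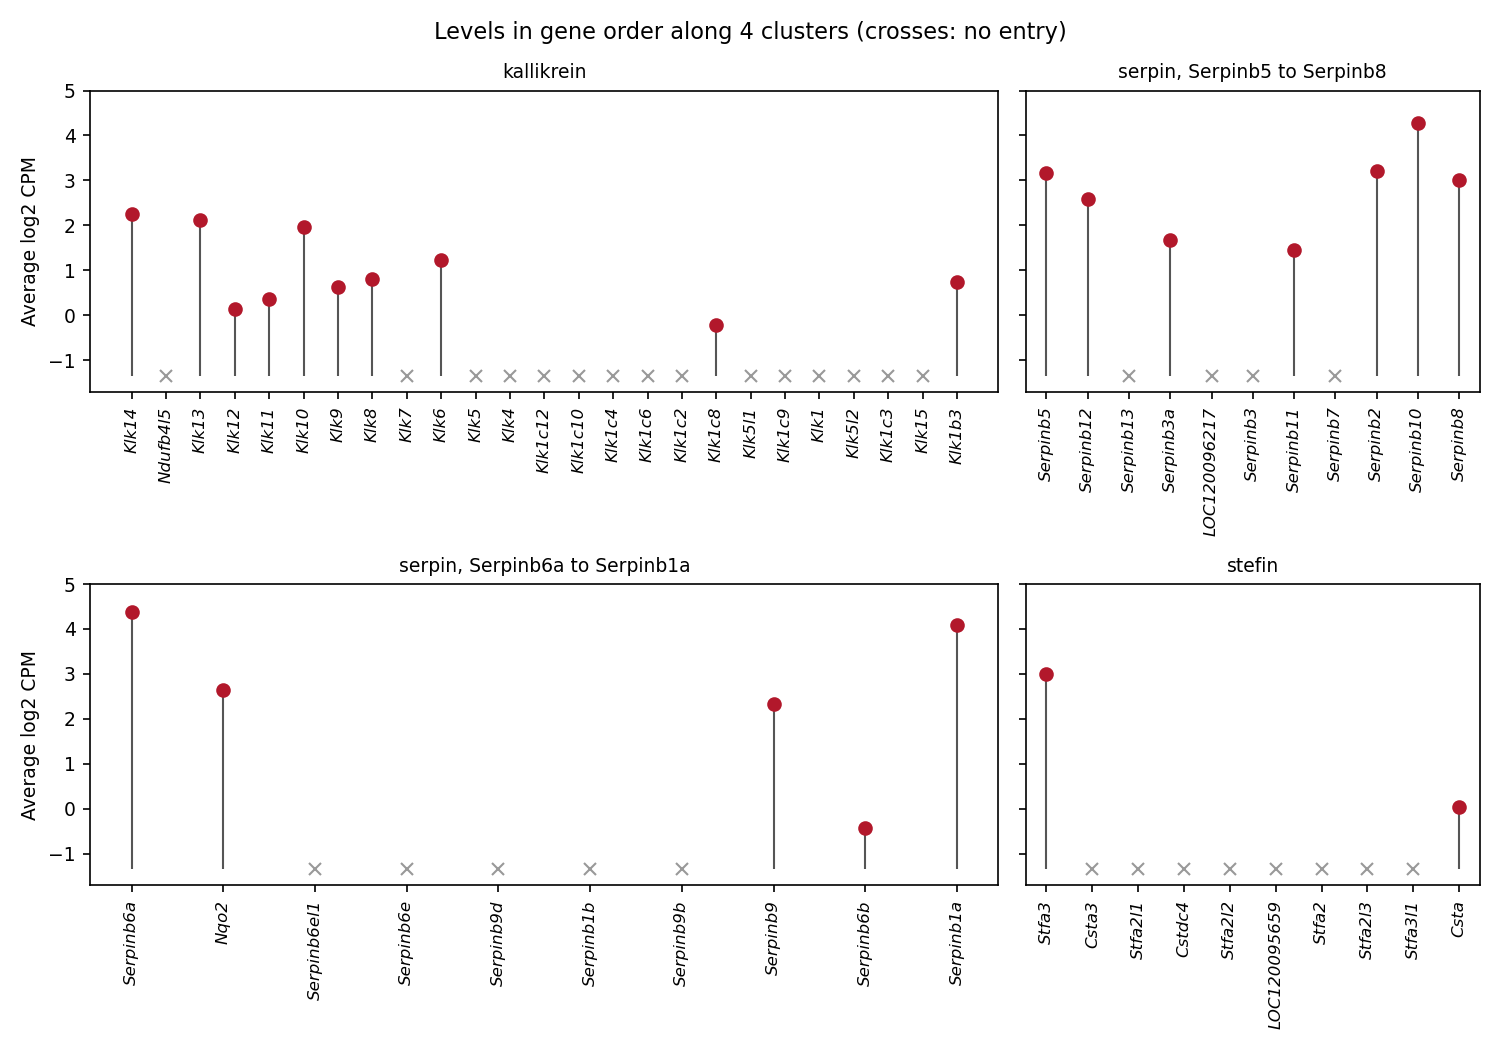
Average log2 CPM (y axis) of the protein-coding genes in order along 4 clusters of the RefSeq annotation (x axis, order only and not distance). Points on stems are genes with an entry under the same symbol and crosses at the base are genes without one. In the kallikrein cluster the points gather from Klk14 to Klk6, and in the stefin cluster only Stfa3 at 3.01 and Csta at 0.05 carry a point.

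Most promoters of these genes had a low content of CpG, a feature that the rule did not use. In vertebrates, promoters of genes used by most cells are often rich in CpG, and promoters of genes used in few tissues often are not. For 24 of the 28 proteases and inhibitors, RefSeq (GRCr8) gave the sequence from 250 bases before to 50 after a transcription start. The ratio of observed to expected CpG had a median of 0.172 in them, beside 0.757 in the 9923 entries with a promoter. Only 1 of the 24 reached a ratio of 0.6, or 4.17%, beside 70.0% of all entries with a promoter. That gene was Serpinb6a, at 1.20. Cst3 came next at 0.468, and the 9 kallikreins lay between 0.0905 and 0.321. The Cstf genes, which are not of these families, were at 0.891 for Cstf1 and 0.903 for both Cstf2 and Cstf3. Low ratios were also found outside the families, as in the squamous marker genes Krt4 at 0.452, Krt5 at 0.377 and Sprr1a at 0.0581, though not in Dsp at 0.832 or Perp at 0.775, so a low ratio was not shown to be particular to them. The median ratio was 0.377 in the squamous markers, 0.300 in the epithelial serine proteases and 0.178 in the skeletal muscle markers. Ratios of 0.6 or more were found in 2 of 7, 1 of 6 and 0 of 4 promoters. These lists are covered in part, since they had 10, 13 and 6 genes with an entry.

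The 250 bases before the start are shown for the gene with the highest average of each family and for Stfa3, so that the CpG-poor and CpG-rich kinds can be compared. Each CpG is in capitals, and all are written from the RefSeq sequence of GRCr8.

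Klk14 (chr1:103268287-103268536, plus strand): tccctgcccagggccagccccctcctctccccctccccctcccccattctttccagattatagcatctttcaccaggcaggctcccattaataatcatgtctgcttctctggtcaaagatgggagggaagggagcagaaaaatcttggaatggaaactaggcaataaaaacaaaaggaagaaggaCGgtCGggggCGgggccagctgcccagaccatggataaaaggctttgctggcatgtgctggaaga
Spink5 (chr18:36515097-36515346, plus strand): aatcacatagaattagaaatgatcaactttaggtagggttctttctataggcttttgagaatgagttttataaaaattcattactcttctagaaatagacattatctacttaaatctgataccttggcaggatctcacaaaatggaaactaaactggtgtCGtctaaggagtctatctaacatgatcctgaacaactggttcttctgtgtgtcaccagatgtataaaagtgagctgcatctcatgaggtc
Serpinb6a (chr17:31076561-31076810, plus strand): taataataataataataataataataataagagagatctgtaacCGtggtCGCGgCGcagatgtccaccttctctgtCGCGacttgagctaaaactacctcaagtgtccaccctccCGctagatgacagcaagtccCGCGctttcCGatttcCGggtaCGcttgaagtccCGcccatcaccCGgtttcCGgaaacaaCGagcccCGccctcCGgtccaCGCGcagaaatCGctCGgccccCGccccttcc
Cst3 (chr3:156793938-156794187, minus strand): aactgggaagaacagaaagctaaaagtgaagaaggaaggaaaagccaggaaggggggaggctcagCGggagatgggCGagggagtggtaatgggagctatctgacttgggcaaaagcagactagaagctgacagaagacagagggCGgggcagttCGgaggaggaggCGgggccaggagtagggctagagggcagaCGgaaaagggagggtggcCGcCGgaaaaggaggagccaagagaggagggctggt
Stfa3 (chr11:77858820-77859069, plus strand): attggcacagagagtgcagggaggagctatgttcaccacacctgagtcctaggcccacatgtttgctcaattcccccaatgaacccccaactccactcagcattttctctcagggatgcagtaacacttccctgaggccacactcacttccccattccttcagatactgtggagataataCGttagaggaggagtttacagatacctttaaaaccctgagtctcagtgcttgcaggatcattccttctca

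Counted in these stretches, Serpinb6a held 23 CpG and Cst3 held 8, while Klk14 held 3 and Spink5 and Stfa3 held 1 each. The level did not follow the CpG ratio across members. Pearson's r was 0.31 and Spearman's rho -0.02 over 24 genes, and without Cst3 and Serpinb6a, the genes farthest from the median ratio, r was -0.31. Over all 9923 entries with a promoter, r was 0.16. These are correlations across genes, which share libraries and are not independent replicates.

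**Figure D4:**
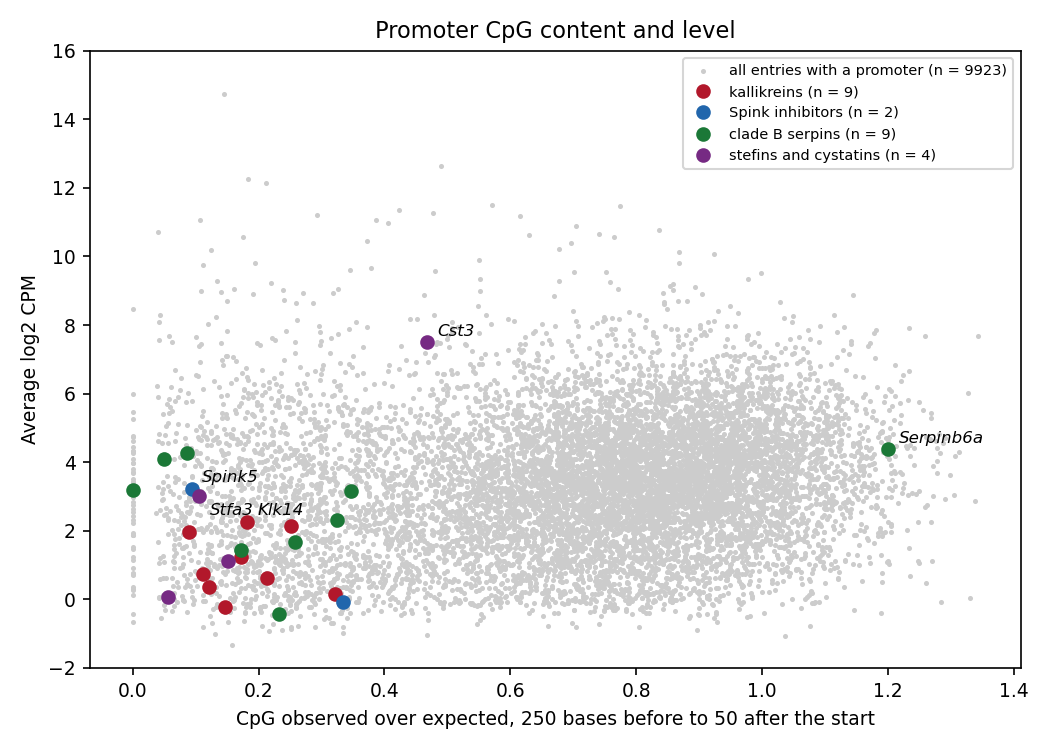
Ratio of observed to expected CpG around the start (x axis) against average log2 CPM (y axis). Grey points are the 9923 entries with a promoter and coloured points the 24 members by family. The coloured points crowd at ratios under 0.4, except Cst3 at 0.468 and Serpinb6a at 1.20.

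Short motifs were searched on both strands of the same stretches, from 250 bases before to 50 after the start, without regard to overlap with each other. The letters TATAAA, the core of a TATA box, were sought only where they would start 40 to 21 bases before the start. They were found in 2 of the 24, Spink5 and Spink7, or 8.33%. The share was 1.42% of all entries with a promoter and 2.04% of all 27457 promoters. In the Spink5 sequence above they begin 29 bases before the start. The letters TGANTCA are a loose form of the AP-1 site, with any base allowed at N. They were in 5 of the 24 (Klk6, Klk12, Serpinb2, Serpinb5 and Cst7), or 20.8%. The share was 5.14% of entries with a promoter and 7.33% of all promoters. The GC box GGGCGG was in 10, or 41.7% beside 61.8% of entries with a promoter and 34.9% of all 27457 promoters, so the direction depends on the background. The letters CCAAT were in 9, or 37.5% beside 37.4% of entries with a promoter. A match describes the letters only.

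The study designed NanoString targets, stretches of 100 bases that a pair of probes binds, for genes it took from this muscle dataset and from a brainstem dataset. Its target list holds 187 genes, beside 14016 entries in the authors' table. The list names 14 of the 28 proteases and inhibitors, namely 8 kallikreins, 2 clade B serpins, 2 Spink inhibitors and 2 stefins. The study chose its targets in part on these samples, so the following is no independent result. The 14 genes with a target had a median average log2 CPM of 1.46 and the 14 without one 2.66. Of the kallikreins, only Klk1b3 and Klk1c8 had no target, and of the 7 members above the overall median only Spink5 had one. Among the genes with targets, Spink and clade B serpins summed to 0.924 times the CPM of the kallikreins, beside 4.71 over all members.

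The targets of each family were compared with each other, target against target only. Targets can come from different parts of related genes, so a short shared run does not show that the transcripts differ. A target was not compared with the whole transcript of a relative, and no background of unrelated targets was computed. In 31 pairs of targets within a family, the longest run of identical bases was 5 to 10. The longest, of 10 bases, was shared by Klk6 and Klk12. Stfa3 and Csta shared 6. Both pairs are shown with the shared run in capitals, because the first are the most alike by this measure and the second come from the cluster of near copies.

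Klk6: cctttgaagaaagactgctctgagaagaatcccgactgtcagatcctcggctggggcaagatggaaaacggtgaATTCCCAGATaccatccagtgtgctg
Klk12: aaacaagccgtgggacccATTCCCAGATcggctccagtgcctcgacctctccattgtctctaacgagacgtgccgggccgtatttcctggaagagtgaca
Stfa3: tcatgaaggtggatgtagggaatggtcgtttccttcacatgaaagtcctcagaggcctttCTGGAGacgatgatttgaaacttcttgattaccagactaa
Csta: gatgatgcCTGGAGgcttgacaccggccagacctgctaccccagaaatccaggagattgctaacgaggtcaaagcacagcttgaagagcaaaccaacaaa

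Of the 14 targets, 13 have a reading frame without a stop codon over their whole length, and the target of Spink5 has no such frame. Any forward frame was counted, so an open frame need not be the frame that the gene uses. The share among unrelated stretches was not computed. Their GC content ran from 38.0% for Serpinb12 to 57.0% for Klk12.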

How the data were processed

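TA muscle RNA of 8 male rats (4 Pink1-/- and 4 WT, grouped by the genotype label) was sequenced by the authors from TruSeq libraries. RSEM and edgeR 3.9 are named in the processing notes of the submitters. Build, annotation and filter are not given in the sources that were used. In the table, the deposited log2 values are the authors' average log2 CPM over all samples, from -1.34 to 18.20 over 14016 entries. Whether CPM was averaged before or after taking log2 is not given, nor whether a small constant was added first. Low levels, such as those of most kallikreins, would be the most affected by such a constant, which was not tested. The other columns hold the authors' own comparison of the genotypes (fold change, likelihood ratio, p-value, adjusted p-value and status) and were not used, so no genotype difference is given and no test was run. The table holds 0 columns of values per rat, so depth and precision per library are unknown.

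Members were found by symbol, and every entry was kept. All members are named, with up to 4 genes of highest level from other lists. Members and lists were chosen with earlier results of these data known. Levels were to be scaled by coding length, but no protein or transcript lengths were at hand, so averages were used as deposited, and the planned protein motifs and protein identities were not computed. Promoters and gene order come from RefSeq (GRCr8), matched by symbol, with the first listed start. A value counted as moved beyond 1.5-fold. Functions were tested on simulated data. Scripts ran in Python 3.11.15 with pandas 2.3.3, numpy 2.4.6, matplotlib 3.10.9 and scipy 1.17.1.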

Additional observations from a re-analysis of the deposited data

How the results depend on the processing

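The median average log2 CPM of kallikreins was below that of inhibitors under every setting run, by differences of -2.23 to -0.81. Counting only Spink inhibitors gave the smallest, -0.81, and turned the log2 ratio of summed kallikreins to inhibitors from -3.69 to 1.20. The Spink median is the midpoint of Spink5 and Spink7, so that difference rests on Spink5. A minimum average of 1 gave -0.97, since it drops the low members, and it moved the medians of kallikreins to 2.04 and of stefins and cystatins to 2.10. A minimum of 0 or 1 leaves only Spink5 of its family, at 3.23. The mean in place of the median gave 2.57 for stefins and cystatins, which rests on Cst3. The log2 ratio of the sums became -2.24 with serine protease inhibitors only, -2.33 without the highest member of each family and -2.40 without Cst3. Leaving out Cst3, Serpinb5 or the tissue kallikreins, counting Cstf genes as inhibitors, using serine protease or Spink inhibitors only, trimming other lists and the mean over listed starts were added after seeing the data. Not run were the scale by coding length, the protein motifs and identities, leaving out each rat, and edgeR or DESeq2, because neither lengths nor values per rat were at hand. No paired analysis was possible because single rats have no values in the table. What depth limits cannot be said, since it is not known.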

Other observations

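Serine proteases of mast cells and neutrophils, which several clade B serpins inhibit, were represented in part. Of 9 listed, 4 had an entry, and all of these are mast cell proteases: Mcpt1 averaged 3.99 on the log2 CPM scale, above every kallikrein, Tpsb2 averaged 1.31, Cma1 0.83 and Tpsab1 0.02. The neutrophil proteases Elane, Prtn3 and Ctsg had no entry here, and neither had the mast cell protease Mcpt2 or the granzyme gene Gzmb. They were not shown to be unexpressed, since the skeletal muscle markers Myh2, Myh1 and Ttn had no entry either. Serpinb6a, Serpinb1a and Serpinb9, whose relatives inhibit cathepsin G, neutrophil elastase and granzyme B, averaged 4.38, 4.09 and 2.33.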
